A study of Rattus norvegicus with 2 samples.

Results

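The acyl-CoA thioesterases described here are 8 genes, Acot1, Acot2, Acot4, Acot7, Acot8, Acot9, Acot12 and Acot13. They were taken as a gene family, and a gene was read through every array probe whose RefSeq accession names it. Each had 1 probe printed in 1 spot, 8 probes in all, and all 8 genes were among the 10484 measured of 13435 named genes on the array. The genes were chosen by family name, with their processed signals on these same 2 arrays already known, so their differences are descriptions and no test was made. The samples were whole kidneys from females of the PCK rat strain. These rats carry a Pkhd1 mutation and model the recessive form of polycystic kidney disease, and both groups share this background. The first was gavaged every day with pioglitazone at 10 mg/kg, and the second with vehicle (0.5% DMSO), between 4 and 20 weeks of age. Pioglitazone activates the nuclear receptor PPAR-gamma. The RNA of each group was a pool, from 5 females by the design text and from 3 rats by the labelling text, and each pool was hybridised to 1 array, so no replicate stands behind any difference. All 11 proximal tubule markers listed, and all 4 podocyte markers, were well above background on both arrays.

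Acyl-CoA thioesterases split acyl-CoA esters into a free fatty acid and coenzyme A, the reverse of the step that acyl-CoA synthetases catalyse. They set the supply of free coenzyme A and of activated fatty acids within each compartment of the cell. Type I enzymes (Acot1 to Acot6) share an alpha/beta hydrolase fold and lie in a gene cluster, while type II enzymes (Acot7 to Acot13) carry hotdog domains. Several are known in liver as targets of PPAR-alpha, the family member that drives fatty acid breakdown, and the proximal tubule of the kidney relies on fatty acid oxidation for energy. PPAR proteins bind, together with RXR, to direct repeats of the hexamer AGGTCA spaced by 1 base, and HNF4A, a tubular transcription factor, binds similar repeats.

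In the gene order of the GRCr8 assembly the type I genes lie on chromosome 6 in the order Acot2, Acot1, Acot4, Acot3, Acot5 and Acot6, with a few other genes between them. Upstream sequence for all 8 genes was taken from RefSeq on the GRCr8 build, with 9 start sites since Acot7 has 2. The 250 bases before each start were searched on both strands for AGGTCANAGGTCA, allowing 1 mismatch among its 12 fixed letters. Matches were found for Acot12, Acot4 and Acot8, in 3 of 9 member sequences, against 123 of 33469 sequences of all genes (0.368%). Allowing 2 mismatches left the members at 3 of 9, with 3.15% of all sequences matching. The hexamer AGGTCA alone was also present in 3 of 9 member sequences and in 14.1% of all; in each of the 3 it lies within the longer match. These 3 sequences are shown because they hold the only such matches among the members, with that of Acot1 for contrast, a bright gene of the chromosome 6 cluster with no match. All are written 5′ to 3′ along the strand of the gene and end at the base before its start, with the matched repeat in capitals.
Acot12 (chr2:24721709-24721958, plus strand): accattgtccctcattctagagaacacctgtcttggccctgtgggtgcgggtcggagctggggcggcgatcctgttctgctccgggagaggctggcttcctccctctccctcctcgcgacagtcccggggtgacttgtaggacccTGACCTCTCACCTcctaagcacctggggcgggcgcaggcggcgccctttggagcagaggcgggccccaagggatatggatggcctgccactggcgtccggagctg
Acot4 (chr6:109399604-109399853, plus strand): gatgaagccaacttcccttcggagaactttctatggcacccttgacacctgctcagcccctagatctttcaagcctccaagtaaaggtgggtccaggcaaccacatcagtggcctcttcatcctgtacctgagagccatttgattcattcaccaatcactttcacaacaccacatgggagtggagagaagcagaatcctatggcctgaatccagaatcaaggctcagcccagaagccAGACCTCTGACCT
Acot8 (chr3:173962189-173962438, minus strand): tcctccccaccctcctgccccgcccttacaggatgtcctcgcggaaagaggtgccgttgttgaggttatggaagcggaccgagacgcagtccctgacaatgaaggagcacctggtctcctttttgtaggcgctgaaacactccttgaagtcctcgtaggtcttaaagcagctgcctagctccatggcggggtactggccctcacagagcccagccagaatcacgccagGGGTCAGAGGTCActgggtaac
Acot1 (chr6:109367024-109367273, plus strand): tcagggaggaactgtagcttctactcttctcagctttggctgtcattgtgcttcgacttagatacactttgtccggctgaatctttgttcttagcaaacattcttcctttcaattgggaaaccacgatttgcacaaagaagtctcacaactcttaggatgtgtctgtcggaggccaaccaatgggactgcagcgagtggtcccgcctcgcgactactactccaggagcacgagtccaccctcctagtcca
The repeat begins 105 bases before the start of Acot12, 13 bases before that of Acot4 and 22 bases before that of Acot8. It reads in the reverse direction in Acot12 and Acot4 and forward in Acot8, with 1 mismatch in each. The Acot12 sequence has 66.4% G and C with 15 CpG pairs, that of Acot4 50.8% with 1, and the median over all genes is 51.2% with 5. A match is a description of these letters and not a bound site.

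Values below are the scanner's processed signals, in intensity units, followed by the log2 difference of pioglitazone minus vehicle after each array was scaled to its 75th percentile. The technical error combines the scanner software's error of both spots and holds no spread between animals. It was 0.20 or 0.21 for all 8 members, close to a fixed share of a bright signal. A gene was called when it differed 1.5-fold (0.585 on the log2 scale) and by more than 2 times this error. Levels of different genes cannot be ranked, because each comes from its own probe.

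Acot12 was called higher with pioglitazone in the main setting, though not with normexp background correction and an offset of 50. Acot4 was just under the threshold, and the other 6 members differed by less than 2 times their technical error. In a whole kidney pool, more cells of a type and more RNA per cell cannot be told apart. The 8 log2 differences ran from 0.01 for Acot8 to 0.78 for Acot12 with a median of 0.20, beside a median of 0.03 over all measured genes. All 8 were above 0, as were 56.1% of measured genes and 63.0% of those above the median signal. The sign of Acot8 turned to -0.005 when arrays were scaled on detected probes alone and to -0.02 with normexp background correction, and the other 7 were positive in every setting tried. By the call, 1 of 8 members was higher and 0 were lower, where 0.754% of all measured genes were called higher, 1.76% lower and 2.51% either way. At 2-fold 0 of 8 members passed, against 0.458% of measured genes. Past 2 times the error, with no fold limit, were 2 of 8, Acot12 and Acot4, against 1.76% of genes that were higher by that measure. In all genes 79 were called higher and 184 lower, a split that became 130 and 117 without scaling and 109 and 132 with median scaling.

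**Figure D1:**
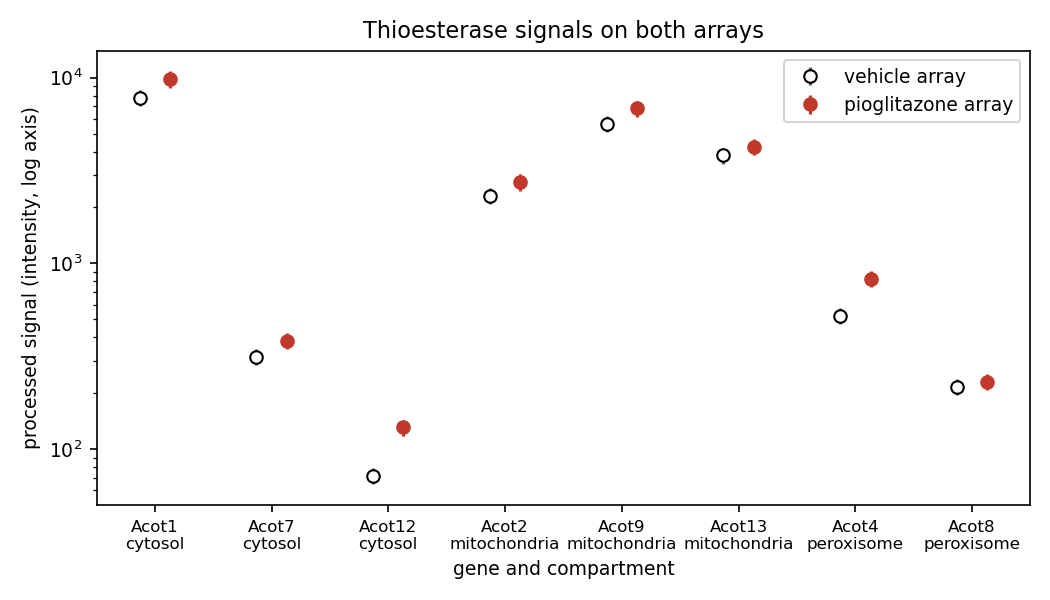
Processed signal (intensity, log axis) of each thioesterase on the vehicle array (open circles) and the pioglitazone array (filled circles), with the scanner software's error of the spot as bars; each point is 1 spot. Acot12 goes from 72.1 to 131 and Acot4 from 524 to 826, while the open and filled circles of Acot8 lie close together, at 217 and 231.

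Among the cytosolic enzymes, Acot12 hydrolyses acetyl-CoA to acetate and free coenzyme A. Its signal was 72.1 ± 7.4 on the vehicle array and 131 ± 13.2 on the pioglitazone array (software error of the spot). The difference was 0.78 ± 0.21 on the log2 scale, a 1.72-fold higher signal, and 32 of 10484 measured genes had a larger positive difference. With normexp background correction and an offset of 50 the difference was 0.48 and Acot12 was no longer called. In that setting 0.0954% of measured genes were called higher, against 0.754% in the main setting. It was the dimmest of the 8 spots, with raw median signals of 98.0 and 153 over local backgrounds of 24.5 and 18.0. Of 2101 measured genes with mean signals from 50 to 200, 22 were called higher (1.05%) and 8 had a larger positive difference than Acot12. Replicated probes in that signal range, spots with outlier flags included and 40 in all with 10 spots each, had a median SD between spots of 0.09 in the same difference, and 1 of their 400 spots lay 1.5-fold from the mean of its own probe.

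Acot1, the inducible long-chain enzyme of the cytosol, gave 7790 ± 779 with vehicle and 9820 ± 982 with pioglitazone. That is a log2 difference of 0.25 ± 0.20, within 2 times its error. Acot7, a long-chain acyl-CoA hydrolase abundant in brain, gave 314 ± 31.4 and 384 ± 38.4, a log2 difference of 0.21 ± 0.20. Of 5 neuronal markers listed 3 had a probe: Snap25 and Stmn2 were not well above background on either array, and Tubb3 read 77.0 and 69.7. The cytosolic members included the called gene and a pair of genes whose differences lay within 2 times their error.

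The 3 mitochondrial members had the narrowest spread. Acot2, the long-chain thioesterase of the mitochondrial matrix, gave 2310 ± 231 with vehicle and 2740 ± 274 with pioglitazone, a log2 difference of 0.16 ± 0.20. Acot9, a mitochondrial enzyme with a broad range of substrates, gave 5630 ± 563 and 6840 ± 684, a log2 difference of 0.20 ± 0.20. Acot13, a small hotdog-fold enzyme that associates with mitochondria, gave 3810 ± 381 and 4250 ± 425, a log2 difference of 0.075 ± 0.20. All 3 were bright, above a signal of 1000, where the median difference over 3656 measured genes was 0.05 and 66.1% of genes were positive. None was called, in a signal range where 0.109% of genes were called higher.

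Of the peroxisomal pair, Acot4 had the larger difference, although the gap between them did not pass 2 times its error. Acot4, which acts on succinyl-CoA and other acyl-CoAs in peroxisomes, gave 524 ± 52.5 with vehicle and 826 ± 82.7 with pioglitazone. The log2 difference of 0.57 ± 0.20, or 1.49-fold, was past 2 times its error and just short of 1.5-fold, so it was not called. It was called with median scaling (0.63) and in the unscaled table (0.66). Of 10484 measured genes 94 had a larger positive difference, and 5 of the 2749 with mean signals from 200 to 1000 did. Acot8, a peroxisomal thioesterase with a broad range of substrates, gave 217 ± 21.8 and 231 ± 23.1, a log2 difference of 0.01 ± 0.20, the smallest of the family. Both carry the repeat match shown above, as does Acot12, so the 3 matches fall on the members with the highest, the second highest and the lowest difference.

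**Figure D2:**
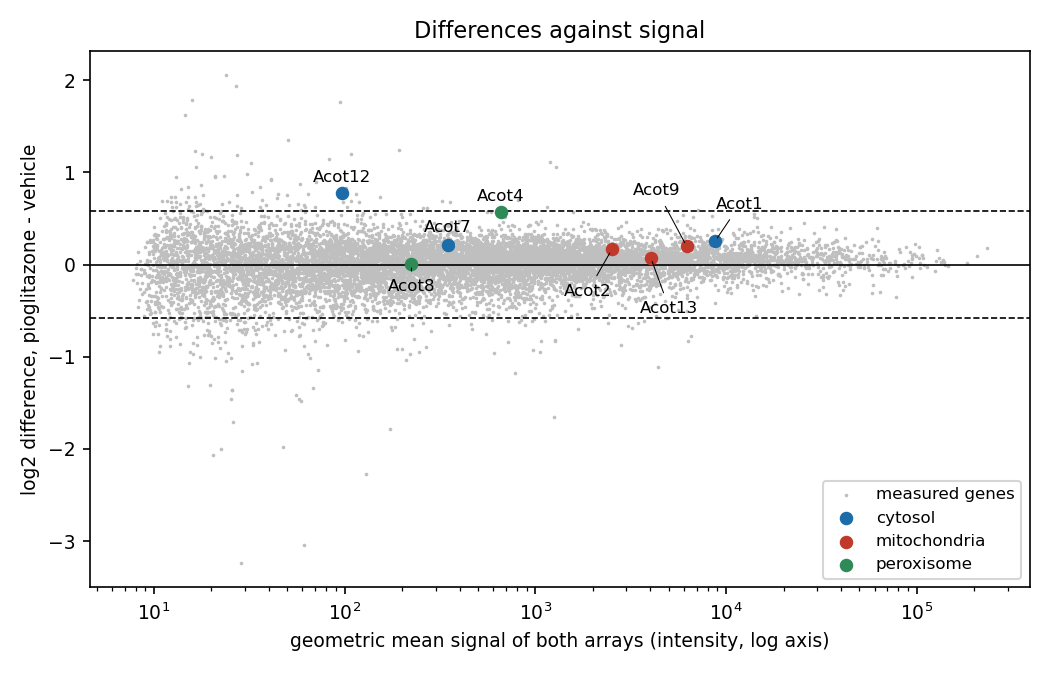
Log2 difference of pioglitazone minus vehicle against the geometric mean signal of both arrays (intensity, log axis) for 10484 measured genes (grey), with the 8 thioesterases coloured by compartment and dashed lines at 1.5-fold. Acot12 (0.78) lies above the upper dashed line, Acot4 (0.57) just under it, and the other 6 lie between 0.01 and 0.25.

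Differences between members were set against the combined error of both genes, in the main setting alone. Of 28 pairs, 3 exceeded 2 times that error, all with Acot12 as the higher gene: by 0.77 over Acot8, by 0.70 over Acot13 and by 0.615 over Acot2. Acot12 over Acot9, at 0.581, fell just short of its limit of 0.582. Acot4 over Acot8, at 0.57 against a limit of 0.58, did not pass, so the peroxisomal pair was not separated by this measure. With normexp and an offset of 50, Acot12 was at 0.48, Acot2 at 0.21, Acot13 at 0.09 and Acot8 at -0.02. The pairs were not compared again in that setting. Type I members had a median difference of 0.25 over 3 genes and type II members 0.20 over 5. The medians by compartment were 0.25 for 3 cytosolic, 0.16 for 3 mitochondrial and 0.29 for 2 peroxisomal genes, the last being the midpoint of Acot8 and Acot4.

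**Figure D3:**
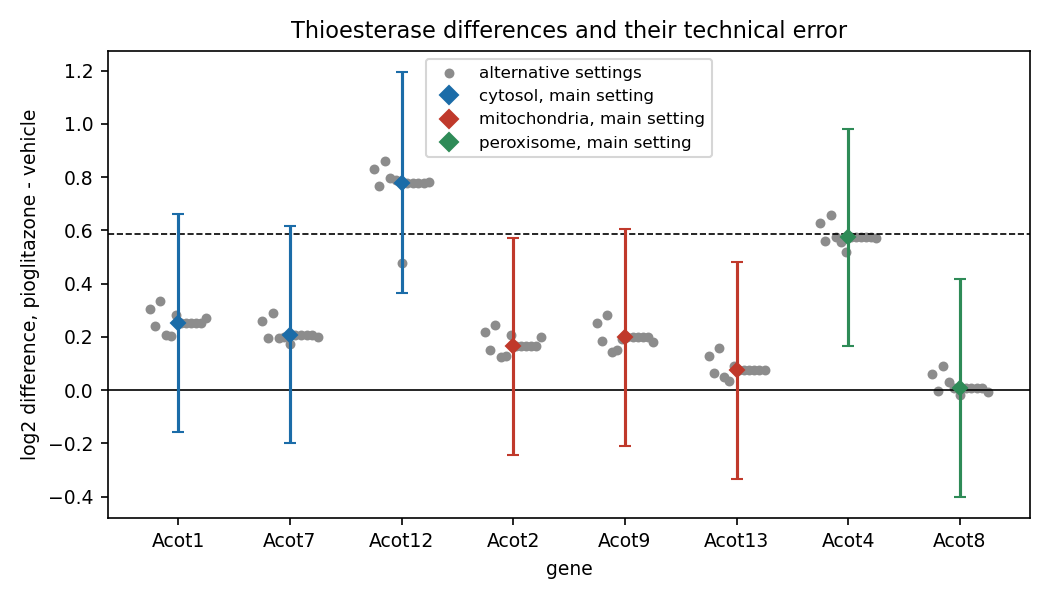
Log2 difference of pioglitazone minus vehicle for each thioesterase in the main setting (diamonds, coloured by compartment, bars of 2 times the technical error) and in the alternative settings (grey points), with a dashed line at 1.5-fold. The bars of Acot12 (0.36 to 1.19) and Acot4 (0.17 to 0.98) stay above 0, those of the other 6 cross it, and 1 grey point of Acot12 drops to 0.48.

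The position of the spots was also checked. Acot4 was printed in the last of 85 grid columns and Acot12 in column 82. None of the 8 lay in the sixth or seventh of 10 bands of rows, which an alternative setting leaves out. Among measured spots within 10 rows and 10 columns, the median log2 difference was 0.01 around Acot4 (156 spots) and 0.01 around Acot12 (192 spots), against 0.01 over all measured spots. Differences of 1.5-fold made up 4.49% of the spots around Acot4, 2.60% of those around Acot12 and 3.25% of all. With the median spot signal less its local background in place of the processed signal, the log2 difference was 0.57 for Acot4 and 0.78 for Acot12, and that of Acot8 turned to -0.008.

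Thioesterases outside the 8 were mixed. Of 13 listed, 8 had a named probe and 6 were measured, with a median of 0.09 (-0.004 with normexp), 4 positive, 2 negative and none called. Acot5, next to Acot3 in the cluster, was at 0.30 ± 0.20 with signals of 792 and 1030, and a dimmer probe of Acot5 read 125 and 180, at 0.44. Acot3, the gene between Acot4 and Acot5, was at 0.04 ± 0.20 with signals of 637 and 694. The gap of 0.53 between Acot4 and Acot3 was within its limit of 0.58. These type I genes are close paralogs and the probe letters were not used here, so the share of signal that one probe takes from another gene's transcript was not tested. Ppt2, a lysosomal thioesterase, was at 0.14, Them4 at 0.39 ± 0.305, Them6 at -0.07 and Hibch, which hydrolyses an intermediate of valine breakdown, at -0.28. Them5 and Olah were well above background with pioglitazone alone. Them5 read 7.57 with vehicle and 15.8 with pioglitazone, at 0.98 ± 0.50, and Olah 6.19 and 9.65, at 0.56 ± 0.49. Neither difference passed 2 times its error.

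The measured enzymes that make, carry and burn acyl-CoA were shifted little. Over 83 measured genes of the 6 lists, other thioesterases included, 65 were positive. Of all measured genes 56.1% were positive, and of those above a signal of 1000, 66.1%. Among the 83, 1 was called, against 2.51% of all measured genes. That gene was Acss2, the cytosolic synthetase that makes acetyl-CoA from acetate, the reaction opposite to that of Acot12. Its signal was 900.0 on the vehicle array and 1470 on the pioglitazone array, a log2 difference of 0.63 ± 0.20. Among the synthetases, 16 measured genes had a median of 0.09 and 13 were positive. Acsl6 and Acsbg2, each well above background on 1 array only, are not among the 16. Acsl6 read 52.5 with vehicle and 1.43 with pioglitazone, the largest difference of the listed synthetases. Acsbg2 read 1.63 and 12.9, a difference within 2 times its error. Acsl1, the main long-chain synthetase of oxidative tissues, was at 0.25, Acsl5 at -0.18 and the transporter Slc27a4 at -0.06.

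Carriers of acyl groups had a median of 0.035 over 18 genes, with 11 positive. Crat, the carnitine acetyltransferase, was at 0.30 and the acyl-CoA binding protein Acbd4 at 0.29, while the peroxisomal transporter Abcd2 was at -0.63 ± 0.39 and Cpt1c at -0.47 ± 0.21. Mitochondrial beta-oxidation had a median of 0.10 over 16 genes, with 14 positive. Acaa2, the thiolase of the last step, was at 0.38 and Acad11 at 0.24, and the dehydrogenases Acadm and Acadl were at -0.13 and -0.04. Peroxisomal oxidation had the highest median of the 6 lists in the main setting, 0.14 over 17 genes, with 15 positive. Phyh, the hydroxylase that starts phytanic acid breakdown, was at 0.33 and the peroxisome proliferation factor Pex11a at 0.29, with Pecr at -0.12 and Nudt12 at -0.01. PPAR-alpha targets had a median of 0.12 over 13 genes, with 10 positive. The fatty acid hydroxylases Cyp4a2 and Cyp4a1 were at 0.375 and 0.33, and Pdk4 and Ucp2 at -0.175 and -0.12. No member of these 4 lists was called, and all 6 medians were above the 0.03 of all measured genes in the main setting. That of the carriers was not with cyclic loess (0.006 against 0.007) or without the sixth and seventh bands of grid rows (0.009 against 0.03). In the main setting, measured genes above the median signal had a median of 0.044, higher than that of the carriers and lower than those of the other lists.

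**Figure D4:**
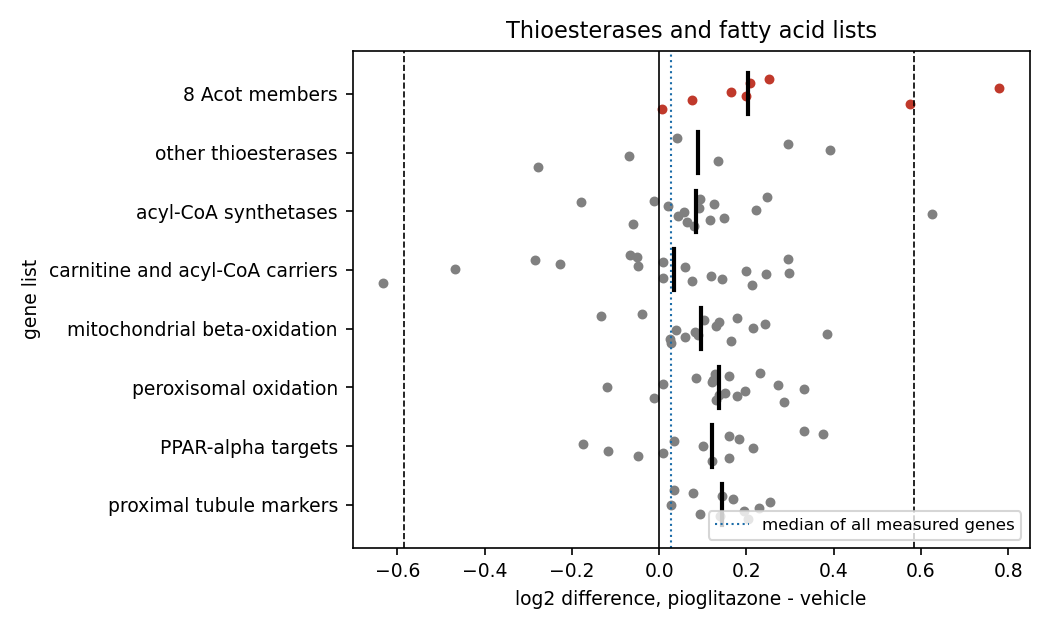
Log2 difference of pioglitazone minus vehicle for the measured genes of each list (points), with the list's median (black bar), the median of all measured genes (dotted line, 0.03) and 1.5-fold (dashed lines). The thioesterases have a median of 0.20 and reach 0.78, the 6 pathway lists have medians between 0.035 and 0.14, and the proximal tubule markers lie between 0.03 and 0.25.

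Markers of several cell types also had differences away from the median of all genes. No proximal tubule, podocyte or intercalated cell marker was called. Proximal tubule markers all had positive values, 11 of 11, with a median of 0.145 and a summed signal of 286231.5 with vehicle and 327493.5 with pioglitazone, 1.08-fold after scaling. Podocyte markers had a median of 0.22 over 4 genes, 1.12-fold in summed signal, and intercalated cell markers 0.31 over 4, 1.16-fold. Macrophage markers were at a median of -0.35 over 5 of 6 listed genes, 0 of them positive and 1 called lower (Itgam, -0.77), with a summed signal 0.81 times that of vehicle. Adipocyte markers were at -0.64 over 6 of 9, with a summed signal 0.62 times that of vehicle. Of the 6, 3 were called lower, Retn (-2.27), Ucp1 (-1.78) and Cfd (-1.18), while Adipoq, Fabp4 and Cidec were between -0.10 and 0.001. Of all measured genes 1.76% were called lower. Below a mean signal of 50, where Itgam lay (24.3 with vehicle and 15.1 with pioglitazone), 4.8% were. Proximal tubule markers ran from 0.03 to 0.25, where Acot12 was at 0.78 ± 0.21 and Acot4 at 0.57 ± 0.20. These gaps were not set against their combined error. The part of the marker shifts in the thioesterase values was not tested.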

How the data were processed

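Per the file headers and notes of the submitters, the deposited files give the intensity of each spot, linear, as Agilent Feature Extraction 10.7.3.1 wrote it after background subtraction and spatial detrending, unscaled between arrays. Both arrays lie on the same slide. The deposited value table has the same intensity at all 45018 features, hence no log or centring (medians 46.8 vehicle, 47.7 pioglitazone). Flagged spots, 149 of 43379, were left out. Signals were taken to log2, each array's 75th percentile was subtracted (a shift of 0.08), and a gene took its brightest probe. GRCr8 RefSeq accessions named 16959 of 40998 probes and left 24039 unnamed, including any whose accession matched several symbols. The files' annotation is on rn4, so only the upstream sequences carry coordinates.

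A gene was measured when both arrays showed it well above background and not saturated; 71.8% and 73.1% of spots passed on the vehicle and pioglitazone arrays. With 1 array per group, their number limits the precision, and no p-value was computed. The members and lists were chosen with earlier results of these data known. The text names all members, other thioesterases, called genes, and the synthetases Acsl6 and Acsbg2, seen on 1 array each. Per pathway list it names the 2 largest differences each way whose probes had the same direction. Markers named singly were chosen after their values were seen. The procedure was run on simulated data whose noise was 1 fixed spread, below the technical error, with no spread between animals. It cannot tell how often the calls made here would repeat. Tools were Python 3.11.15, numpy 2.4.6, pandas 2.3.3, matplotlib 3.10.9 and, for quantile, cyclic loess and normexp settings, limma 3.58.1 in R 4.3.3.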

Additional observations from a re-analysis of the deposited data

How the results depend on the processing

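The median difference of the 8 thioesterases lay between 0.17 and 0.29 over 13 settings. The count of called members was 1, where 0.754% of all measured genes were called higher. It became 2 with median scaling and in the unscaled table, where Acot4 passed (0.63 and 0.66) and 1.04% and 1.24% of genes were called higher. It became 0 with normexp correction and an offset of 50, where Acot12 was at 0.48 and 0.0954% of genes were called higher. Among genes above the median signal, which leave out the dim Acot12, it was 0, with 0.0954% of them called higher. At 2-fold it was 0, against 0.458% of genes either way. Called genes of the pathway lists, 1 in the main setting, became 2 with no filter on dim probes, which adds Acsl6 as lower, and 0 at 2-fold. The offset adds 50 to every signal before log2, which by arithmetic brings a ratio closer to 1, most for dim spots. Acot12 had raw median signals of 98.0 and 153. Its spot signals less local background, with no offset, gave a log2 difference of 0.78. The offset and the normexp correction were not tested apart. Of 203 comparisons of a value with its alternative, 195 stayed within 1 technical error or within 1.5 times a count. Many could not move: each member has 1 unflagged probe, so settings on dim probes, flags, averaging or grid rows returned the same value. List medians were held to the members' median technical error, so a change of sign could count as staying. That of other thioesterases did so, from 0.09 to -0.004 with normexp. Normexp used median spot signals. The setting with the spot signal less local background was chosen after seeing the data. No paired analysis was possible because only 1 array stands for each treatment.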
